A study of Mus musculus with 2 samples.

Results

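The genes that build, load and switch on the major histocompatibility complex (MHC) class II display were followed through the cells of the mouse uterus. They were 7 of the 32285 genes in the count matrices, found by symbol in both libraries: the chain genes H2-Aa, H2-Ab1 and H2-Eb1, the peptide exchange genes H2-DMa and H2-DMb1, the invariant chain gene Cd74, and the regulator Ciita. The rule for these genes names symbols and uses no measured value, although the set was proposed with earlier results of these data known. Whole uteri came from female mice aged 6 months that carried floxed alleles of Prickle1 (control, titled Prickle1 f/f) or the same alleles with a Cre recombinase driven by Ltf, the lactoferrin gene, which is active in uterine epithelium (cKO, titled Prickle1 f/f Ltf-cre). The genotype entry of the labels calls both groups C57BL/6J wild-type. Since the titles say otherwise, the groups follow the titles. Each group was 1 droplet-based single-cell library from 3 pooled mice, so no difference below has a replicate check and no test across animals exists. An effect of genotype cannot be told apart from one of the animals, of tissue dissociation or of the library itself.

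MHC class II molecules are pairs of an alpha and a beta chain that show peptides from the endosome to CD4+ T cells. Newly made pairs travel with the invariant chain, whose remnant is exchanged for a peptide with the help of H2-DM, and transcription of all these genes is switched on by the coactivator Ciita, which binds no DNA itself but docks on factors sitting at shared promoter boxes. Macrophages, dendritic cells and B cells carry class II as part of their identity, whereas epithelium and other cells can be brought to make it by interferon gamma. H2-Aa and H2-Ab1 encode the chains of I-A. H2-Eb1 encodes the beta chain of I-E, whose alpha chain is not made in C57BL/6 mice.

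In the GRCm38 annotation (GENCODE release M21) the chain and exchange genes lay close together on chromosome 17. H2-DMa spanned 34119541 to 34139101 on the plus strand, H2-DMb1 34153072 to 34160230 on the plus strand, H2-Ab1 34257689 to 34269419 on the plus strand, H2-Aa 34282744 to 34287823 on the minus strand and H2-Eb1 34305867 to 34316674 on the plus strand. Ciita lay on chromosome 16 (10480059 to 10528418, plus strand), and Cd74 on a chromosome apart from the others. The promoter windows of H2-Aa, H2-Eb1 and H2-DMb1 are shown because they share, in the same order, letters of the X box, bound by the RFX complex, and of the Y box, bound by NF-Y, on which Ciita docks. Each is the 250 bases before the RefSeq transcription start (GRCm38.p6), written 5′ to 3′ on the gene's strand, with the matches in capitals.
H2-Aa, chr17:34287824-34288073, minus strand: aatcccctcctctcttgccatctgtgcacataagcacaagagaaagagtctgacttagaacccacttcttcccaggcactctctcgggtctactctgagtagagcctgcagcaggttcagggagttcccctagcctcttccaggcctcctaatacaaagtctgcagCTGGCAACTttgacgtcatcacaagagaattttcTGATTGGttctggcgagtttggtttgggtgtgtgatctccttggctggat
H2-Eb1, chr17:34305617-34305866, plus strand: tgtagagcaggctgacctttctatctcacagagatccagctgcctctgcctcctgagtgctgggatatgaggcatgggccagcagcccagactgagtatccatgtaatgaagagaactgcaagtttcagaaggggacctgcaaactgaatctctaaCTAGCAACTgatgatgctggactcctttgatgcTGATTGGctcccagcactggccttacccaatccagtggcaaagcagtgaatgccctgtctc
H2-DMb1, chr17:34152941-34153190, plus strand: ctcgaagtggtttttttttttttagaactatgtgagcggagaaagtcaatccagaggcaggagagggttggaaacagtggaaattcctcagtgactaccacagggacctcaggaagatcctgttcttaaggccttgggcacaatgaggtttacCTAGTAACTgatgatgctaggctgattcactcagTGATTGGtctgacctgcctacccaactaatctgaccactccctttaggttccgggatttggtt
The X letters (CTNGNAACT) began at -84 in H2-Aa, -94 in H2-Eb1 and -97 in H2-DMb1, where -1 is the base before the start. The Y letters (TGATTGG) began at -50, -61 and -63, which left 25, 24 and 25 bases between the boxes. Both motifs were searched on both strands and do not overlap, and their letters were chosen after these sequences had been read. Over all 32851 RefSeq windows of this length, 1139 (3.47%) held the X letters and 2375 (7.23%) the Y letters. X followed by Y within 40 bases on the same strand occurred in 5 windows (0.0152%), those of H2-Aa, H2-DMb1, H2-Eb1, 1700048F04Rik and BC051142. Of the 7 genes, 4 matched the RefSeq table, and neither of the 2 windows listed for H2-DMa held these letters.

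The control library held 45035801 unique molecular identifiers (UMIs, the count of captured transcripts) and the cKO library 57145553. Cells were the barcodes with 500 or more genes and no more than 20% mitochondrial UMIs, 3653 in control (median 4650 UMIs) and 4950 in cKO (median 5944 UMIs), and 5 cell barcodes occurred in both libraries. Cells were gated by a UMI of Epcam (epithelial), Pdgfra (stromal), Actg2 (muscle), C1qa (macrophage), Flt3 or Ccr7 (dendritic) or Cd3e or Ncr1 (lymphoid) with none of the other gates, which gave 941 epithelial, 617 stromal, 287 muscle, 223 macrophage, 139 dendritic and 141 lymphoid cells in control and 129, 1439, 528, 104, 230 and 413 in cKO. Cells with several gates (217 and 307) or no gate (1088 and 1800) were kept apart, and the RNA of cell-free barcodes with at most 100 UMIs served as background. The targeted gene Prickle1 had 15 UMIs (0.895 CPM, the UMIs of a gene scaled to a common total) in control and 16 UMIs (4.26 CPM) in cKO epithelial-gated cells, against 1.55 and 5.69 CPM in cell-free barcodes. Reads from transcript 3-prime ends do not show whether an internal part of the gene was deleted. Levels below are CPM of the summed UMIs of a class with exact Poisson 95% intervals, which cover counting error only, and CPM is not corrected for gene length.

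The macrophage and dendritic marker lists were each highest in the gate of their name. The macrophage list (C1qa, C1qb, C1qc, Csf1r, Adgre1 and Mrc1, gate gene included) summed to 4845 CPM in control and 6161 CPM in cKO macrophage-gated cells, and to 61.2 and 42.6 CPM in dendritic-gated cells. The dendritic list (Flt3, Ccr7, Zbtb46, Xcr1, Clec9a, Cd209a, Ccl22 and Fscn1, gate genes included) summed to 6750 and 10894 CPM in dendritic-gated cells and to 82.6 and 58.1 CPM in macrophage-gated cells. In cKO the epithelial gate was mixed: epithelial markers summed to 7626 CPM (11212 in control), stromal markers to 3157 CPM (252 in control), muscle markers to 428 CPM (20.3 in control) and mesothelial markers to 335 CPM (17.8 in control). Leukocyte markers were also higher there, with 75.8 CPM for monocyte (3.10 in control), 31.7 for dendritic (6.32), 19.7 for lymphoid (2.27) and 15.7 for macrophage markers (1.97). A UMI of Ptprc, the leukocyte antigen CD45, was seen in 40 of 129 cKO and 19 of 941 control epithelial-gated cells.

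Most class II presentation UMIs sat in the macrophage and dendritic gates. Macrophage-gated cells, 223 of 3653 control cells, held 30.7% of the UMIs of the 7 genes, and dendritic-gated cells, 139 of 3653, held 34.1%. In cKO the macrophage gate held 17.0% and the dendritic gate 48.0%. The shares moved with the number of cells, since in cKO the macrophage gate was 104 and the dendritic gate 230 of 4950 cells. Epithelial-gated cells held 3.60% of the UMIs in control and 0.283% in cKO, and the stromal, muscle and lymphoid gates each held under 1% in both libraries.

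The chain genes stood 9.56 to 22.5 times above the cell-free background in both immune gates. In macrophage-gated cells H2-Aa reached 3137 CPM (3056 to 3219) in control and 4235 CPM (4100 to 4374) in cKO, and in dendritic-gated cells 3455 CPM (3355 to 3557) and 2814 CPM (2753 to 2877). Cell-free barcodes held H2-Aa at 170 and 189 CPM. Its partner chain H2-Ab1 was at 2059 and 2775 CPM in the macrophage gate and at 2479 and 1669 CPM in the dendritic gate, against 150 and 175 CPM in cell-free barcodes. H2-Eb1, the I-E beta chain, was at 1554 and 2121 CPM in the macrophage gate and at 2204 and 1574 CPM in the dendritic gate, against 98.1 and 125 CPM. For each of the 3 chain genes the dendritic gate was the higher in control and the macrophage gate the higher in cKO. The dendritic to macrophage ratio of H2-Aa was 1.10 (1.06 to 1.15) in control and 0.664 (0.639 to 0.691) in cKO, that of H2-Ab1 was 1.20 and 0.601, and that of H2-Eb1 was 1.42 and 0.742. H2-Eb1 has a near-identical relative, H2-Eb2, and how reads shared by such copies were counted is not given in the sources used here, so its values are uncertain to that extent.

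**Figure D1:**
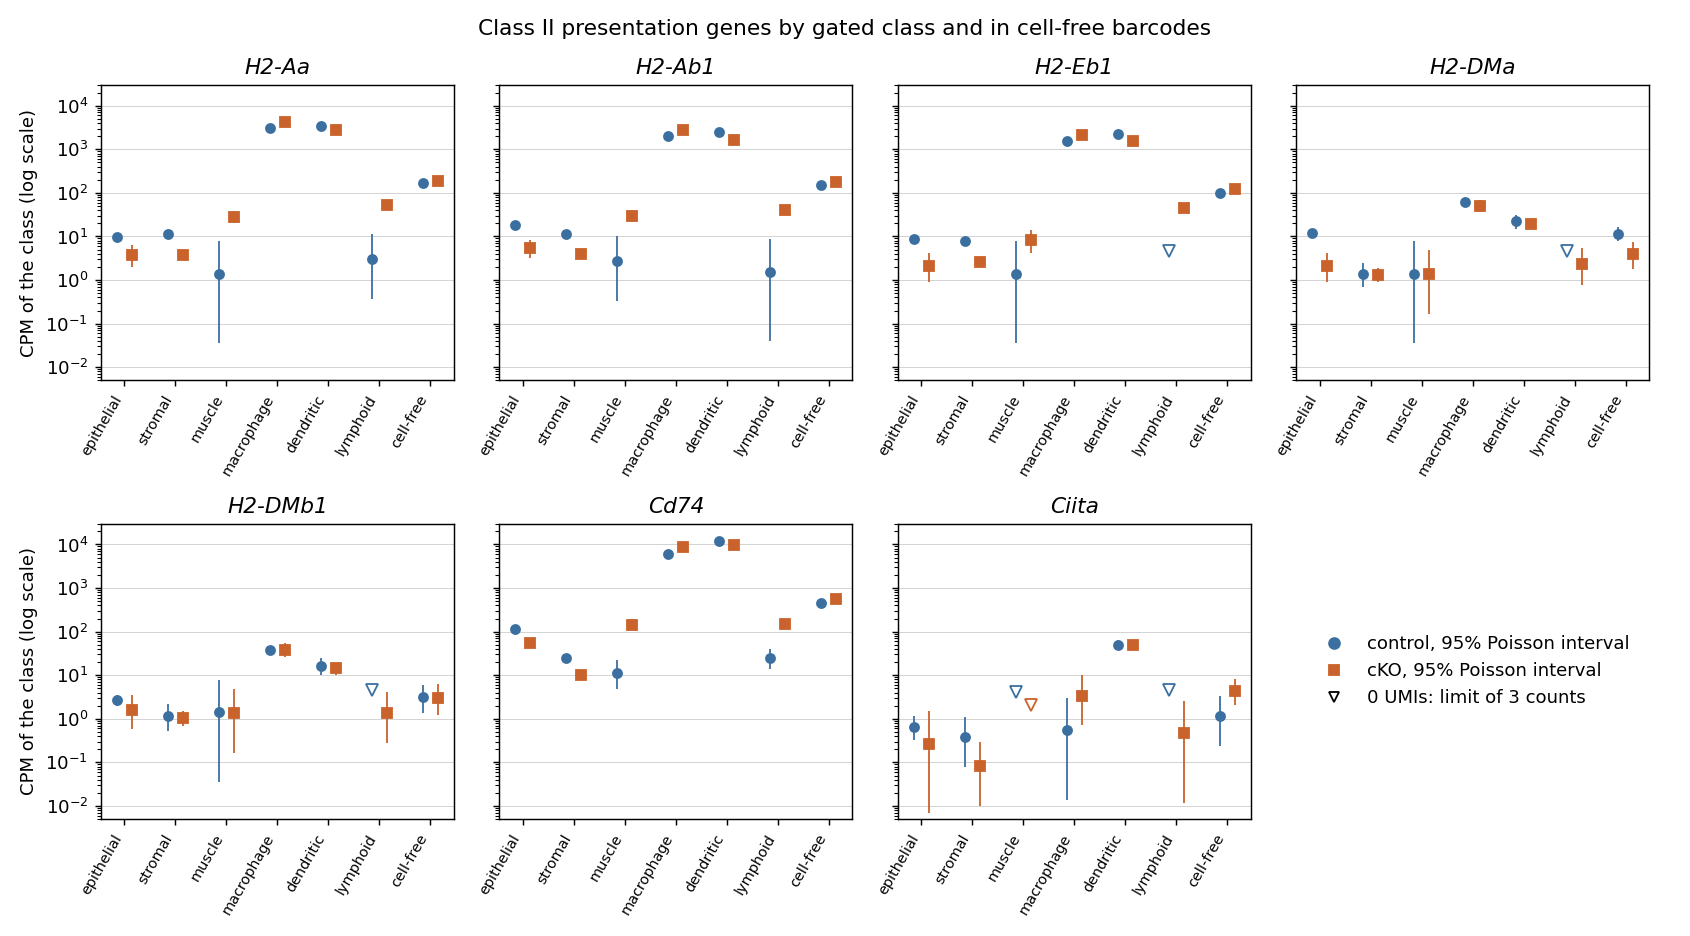
Level of each of the 7 genes (CPM of the class total, log axis) in the 6 gated classes and in cell-free barcodes, with circles for control, squares for cKO, bars for exact Poisson 95% intervals and open triangles for the limit that 0 UMIs allow. The chain genes and Cd74 exceed 1500 CPM in both immune gates of both libraries, whereas Ciita stands near 50 CPM in the dendritic gate and below 5 CPM elsewhere.

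The invariant chain gene Cd74 (chromosome 18, 60803848 to 60812652, plus strand) leaned to the dendritic gate more than the chains did. Cd74 was at 6057 CPM (5945 to 6170) in control macrophage-gated cells and at 11900 CPM in control dendritic-gated cells, a dendritic to macrophage ratio of 1.96 (1.92 to 2.01). In cKO the levels were 8942 CPM (8745 to 9142) and 9708 CPM (9593 to 9823), a ratio of 1.09 (1.06 to 1.11). Cell-free barcodes held Cd74 at 450 and 564 CPM.

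The peptide exchange genes leaned the other way, to the macrophage gate, in both libraries. H2-DMa was at 61.4 CPM (50.6 to 73.9) in control macrophage-gated cells and at 22.2 CPM (14.8 to 31.8) in dendritic-gated cells, and at 50.1 and 19.7 CPM in cKO. The macrophage to dendritic ratio was 2.77 (1.83 to 4.32) in control and 2.54 (1.67 to 3.84) in cKO. H2-DMb1, the partner of H2-DMa, was at 37.0 and 38.7 CPM in the macrophage gate and at 16.1 and 14.4 CPM in the dendritic gate, a ratio of 2.30 (1.39 to 3.95) in control and 2.68 (1.65 to 4.33) in cKO. H2-DMb1 has a near copy, H2-DMb2, which had 2 and 0 UMIs in the macrophage gate and 22 and 41 UMIs in the dendritic gate, so the split of shared reads between the copies bears on this ratio and was not tested.

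The dendritic gate held more Ciita UMIs than any other gate. Dendritic-gated cells held 65 control UMIs (49.7 CPM, 38.4 to 63.3) and 138 cKO UMIs (48.6 CPM, 40.8 to 57.4), against 1 UMI and 3 UMIs in macrophage-gated cells. The dendritic to macrophage ratio was 91.4 (15.8 to 3666) in control and 14.2 (4.77 to 69.8) in cKO. Dendritic-gated cells thus held 52.8% of all Ciita UMIs in cells in control and 73.8% in cKO, and cells with several gates another 26.8% and 21.4%. In control, 8.94% of them (11 UMIs) lay in epithelial-gated cells. A Ciita UMI occurred in 27 of 139 (19.4%) and 57 of 230 (24.8%) dendritic-gated cells, with a median depth of 8833 and 11856.5 UMIs, and in 1 of 223 and 3 of 104 macrophage-gated cells, with a median depth of 7862 and 7939.5 UMIs. Cell-free barcodes held 3 and 10 Ciita UMIs (1.16 and 4.38 CPM), so the macrophage counts were not distinguishable from background at this depth. After thinning every cell to 1000 UMIs, 6 of 138 control and 7 of 227 cKO dendritic-gated cells kept a Ciita UMI, against 0 of 220 (which allows a share of up to 1.36%) and 1 of 103 macrophage-gated cells. Averaged over all possible draws the dendritic shares were 4.31% and 4.27%.

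Set against Cd74 within the same cells, the composition of the class II signal differed between the gates. H2-Aa gave 51.8 (50.2 to 53.5) UMIs per 100 Cd74 UMIs in control macrophage-gated cells and 29.0 in dendritic-gated cells, and 47.4 and 29.0 in cKO. H2-DMa gave 1.01 (0.835 to 1.22) and 0.186 (0.125 to 0.268) in control, and 0.561 and 0.203 in cKO. Ciita gave 0.00898 and 0.418 in control, and 0.0382 and 0.501 in cKO. The macrophage gate therefore carried more chain and exchange UMIs for each Cd74 UMI and the dendritic gate more Ciita, in either library.

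**Figure D2:**
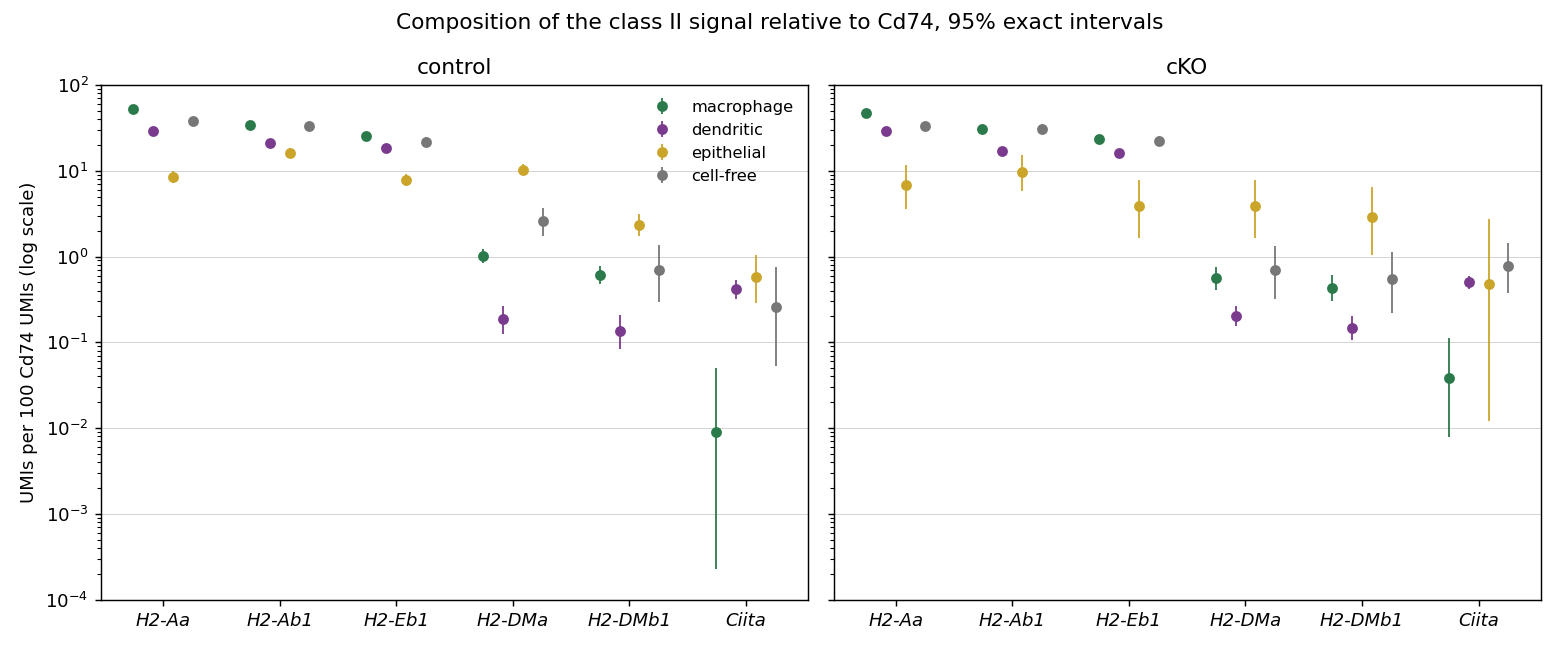
UMIs of each gene per 100 Cd74 UMIs (log axis) in macrophage-gated, dendritic-gated and epithelial-gated cells and in cell-free barcodes, with control on the left, cKO on the right and bars for exact 95% intervals. H2-DMa stands at 10.3 per 100 in control epithelial-gated cells, above the cell-free 2.59 and the macrophage 1.01.

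Within the immune gates most cells carried several of the genes. At least 4 of the 7 were seen in 168 of 223 (75.3%) control and 80 of 104 (76.9%) cKO macrophage-gated cells, and in 118 of 139 (84.9%) and 172 of 230 (74.8%) dendritic-gated cells. The summed level per cell had a median of 10237 CPM and a middle range (25th to 75th percentile) from 4781 to 16787 CPM in control macrophage-gated cells, and a median of 11842 CPM and a range from 2731 to 27336 CPM in cKO. Dendritic-gated cells had medians of 16339 and 13851 CPM. Some gated cells had none of these UMIs: 17 and 7 macrophage-gated cells and 7 and 25 dendritic-gated cells.

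The dendritic gate was mostly set by Ccr7, the receptor of dendritic cells on the way to lymph nodes. It took in 97 control and 96 cKO cells with Ccr7 but no Flt3, 41 and 127 cells with both, and 1 and 7 cells with Flt3 alone. Cd74 was at 12100 CPM (11859 to 12344) in control cells with Ccr7 alone and at 11601 CPM (11307 to 11900) in cells with both, and at 10345 CPM (10135 to 10557) and 9606 CPM (9465 to 9747) in cKO. The intervals of these subsets overlap in control and do not overlap in cKO. The 7 cKO cells with Flt3 alone held Cd74 at 5205 CPM (4730 to 5715), H2-Aa at 1692 CPM and H2-Eb1 at 887 CPM, each seen in 3 cells. Ciita was at 46.5 and 54.9 CPM in these control subsets and at 48.0 and 47.3 CPM in the cKO subsets, with overlapping intervals.

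**Figure D3:**
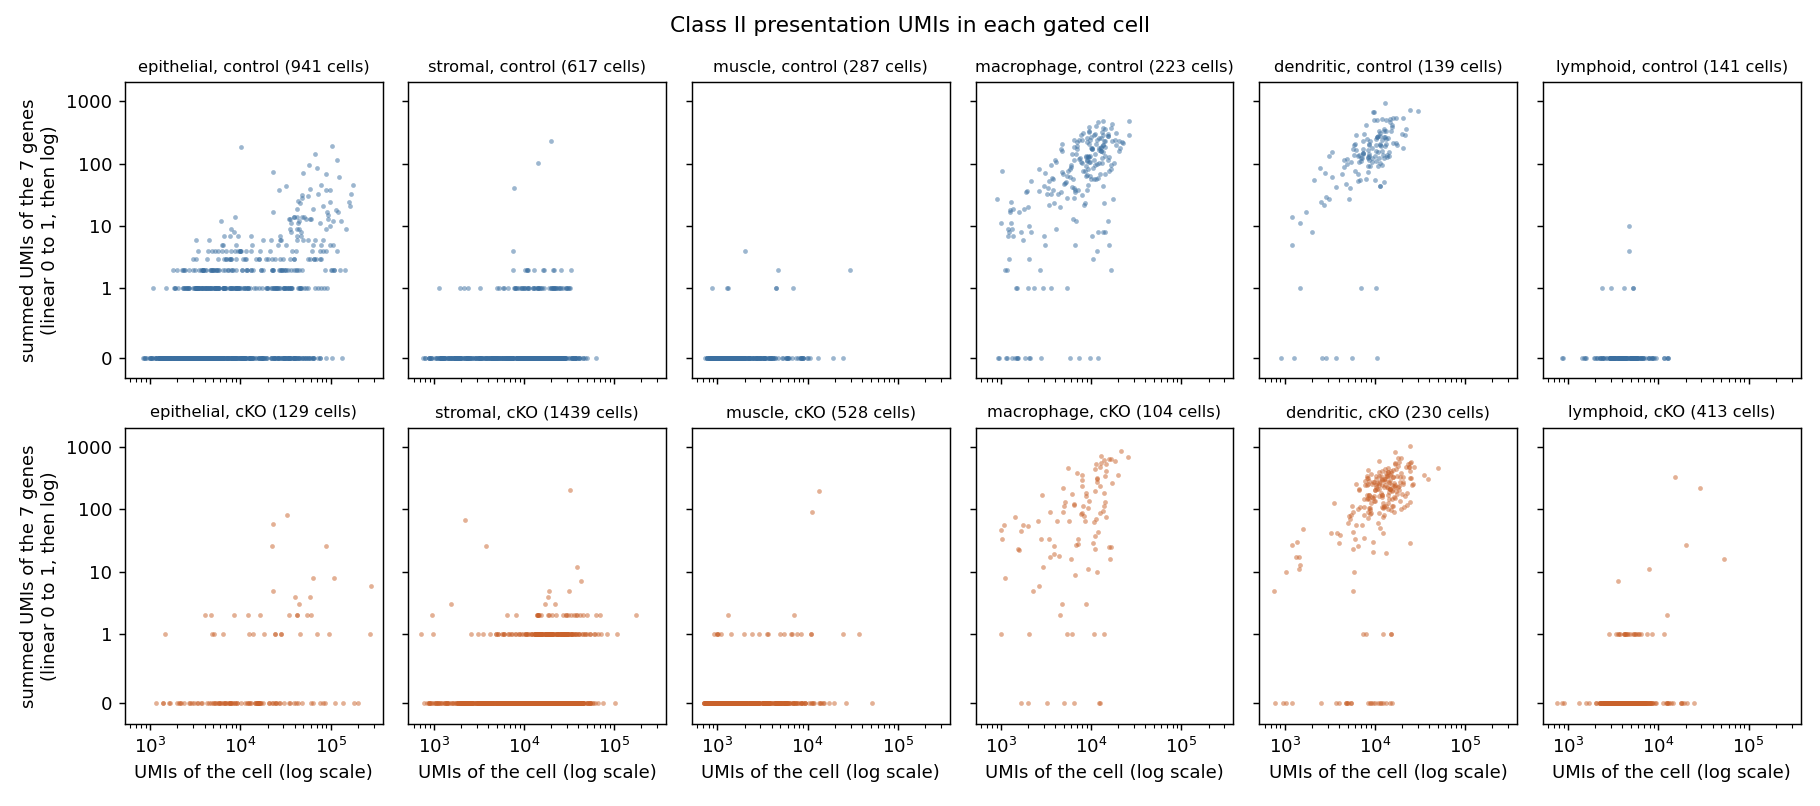
Summed UMIs of the 7 genes (vertical axis, linear from 0 to 1 and logarithmic above) against the UMIs of the cell (log axis) for every gated cell, with 1 panel per class, control above and cKO below. Macrophage-gated and dendritic-gated cells form a high band, whereas the stromal panels and the cKO muscle and lymphoid panels show a few cells with over 50 UMIs above many at 0. The highest control cell has 4 UMIs in the muscle and 10 UMIs in the lymphoid panel.

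Between the libraries, no tested gene of the set differed 2-fold in the macrophage or the dendritic gate. Ciita, with 1 UMI in control and 3 UMIs in cKO, had too few to be tested in the macrophage gate. Here and below a gene with at least 20 UMIs over both libraries was counted as higher or lower at a 2-fold difference. In macrophage-gated cells 0 of 6 genes passed, beside 10.4% of 7603 genes higher in cKO and 4.29% lower. Their median log2 ratio of cKO to control was 0.43 (0.36 to 0.52), with 0.19 for all genes. The cKO to control ratio was 1.48 (1.43 to 1.52) for Cd74, 1.35 (1.30 to 1.41) for H2-Aa, 1.35 for H2-Ab1, 1.36 for H2-Eb1, 0.816 (0.562 to 1.17) for H2-DMa and 1.05 (0.673 to 1.60) for H2-DMb1. Cd74 and the chains were thus higher in cKO by less than 2-fold, and the intervals of the exchange genes spanned equality. Mast-cell markers (Cpa3, Kit and Tpsb2) were at 6.52 CPM (12 UMIs) in the control and 231 CPM (203 UMIs) in the cKO macrophage gate, the latter from 2 cells. In the 215 control and 102 cKO macrophage-gated cells without such a UMI, Cd74 was at 6134 and 9051 CPM and H2-Aa at 3173 and 4287 CPM.

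In dendritic-gated cells 0 of 7 genes passed, beside 11.6% of 8878 genes higher in cKO and 4.17% lower, with a median log2 ratio of -0.29 (-0.55 to -0.24) against 0.26 for all genes. The ratio was 0.816 for Cd74, 0.815 (0.785 to 0.845) for H2-Aa, 0.673 (0.644 to 0.704) for H2-Ab1, 0.714 (0.681 to 0.749) for H2-Eb1, 0.889 (0.558 to 1.44) for H2-DMa and 0.899 (0.519 to 1.60) for H2-DMb1. Ciita had a ratio of 0.978 (0.723 to 1.33), so a difference beyond these limits was not seen for the regulator. Cd74 and the chains were lower in the cKO dendritic gate and higher in the cKO macrophage gate. Mast-cell markers summed to 189 CPM in the control and 292 CPM in the cKO dendritic gate, below the 372 and 389 CPM of cell-free barcodes. In the 85 control and 86 cKO dendritic-gated cells without such a UMI, Cd74 was at 12634 and 10343 CPM and H2-Aa at 3994 and 3020 CPM. Cd79a, a gene of the B cell receptor, was at 26.0 and 9.86 CPM in the gate, and without the 7 and 5 cells that held it Cd74 was at 12097 and 9807 CPM. Endothelial (31.3 and 121 CPM), monocyte (56.6 and 141), stromal (141 and 221) and lymphoid markers (20.6 and 40.9) were higher in the cKO dendritic gate. Plasmacytoid dendritic (278 and 105 CPM) and epithelial markers (72.6 and 32.4) were lower. The part of these markers in the ratios was not tested.

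Epithelial-gated cells carried class II presentation transcripts at a low level, for most genes below that in cell-free barcodes. The 7 genes summed to 166 CPM (160 to 172) in control and 70.5 CPM (62.3 to 79.5) in cKO, which was 18.8% and 6.63% of the level in cell-free barcodes of the same library. With gates allowed to overlap these shares were 56.3% and 38.2%, and without the 3 highest cells 15.5% and 2.53%. Cell-free RNA makes up only part of a cell's UMIs, so a level below that of cell-free barcodes can still exceed its contribution. From markers of the other gates this part was estimated at 8.47% in control and 21.3% in cKO. The summed level lay above that estimate in control and below it in cKO, where the mixed gate bears on the estimate. Cd74 was at 114 CPM (109 to 119) in control and 55.4 CPM (48.1 to 63.4) in cKO, H2-Ab1 at 18.4 and 5.32 CPM, H2-Aa at 9.66 and 3.73 CPM and H2-Eb1 at 8.89 and 2.13 CPM. The genes did not follow the background in a common ratio. In control, the level relative to cell-free barcodes was 0.253 (0.235 to 0.273) for Cd74, 0.123 (0.105 to 0.143) for H2-Ab1, 0.0906 for H2-Eb1, 0.0567 (0.0471 to 0.0681) for H2-Aa and 1.01 (0.685 to 1.54) for H2-DMa. Lyz2, the macrophage lysozyme, was at 0.00850 (0.00401 to 0.0160) of its cell-free level in the same cells and C1qb and C1qc together at 0.484% of theirs, although the gate leaves out every cell with a C1qa UMI. A wider set of leukocyte genes (Lyz2, Tyrobp, Fcer1g, Laptm5 and Ctss) summed to 73.6 CPM in control, 18.2% of its cell-free level, and to 247 CPM in cKO, 42.4% of its level. That set is not particular to macrophages, since it was at 1905 and 2178 CPM in lymphoid-gated cells, and lymphoid markers were at 2.27 CPM in the control and 19.7 CPM in the cKO epithelial gate.

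The exchange genes, H2-DMa above all, held a larger part of their UMIs in the epithelial gate than the chains and Cd74 did. Of its 513 UMIs in control cells, 197 (38.4%, 34.2 to 42.8) lay in epithelial-gated cells, spread over 147 of 941 cells with at most 4 in any cell, whereas the epithelial gate held 1.07% of the H2-Aa and 4.58% of the Cd74 UMIs. Of the UMIs of its partner H2-DMb1, 23.6% (17.7 to 30.2) lay there. The epithelial gate also held many of the control UMIs of all genes (16766411), so these shares do not mean a higher level there. In control the level of H2-DMa was 11.7 CPM (10.2 to 13.5) in the gate and 13.6 CPM over all cells. That of H2-DMb1 was 2.68 CPM in the gate and 5.07 CPM over all cells. Per 100 Cd74 UMIs, H2-DMa gave 10.3 (8.86 to 11.9) in epithelial-gated cells, 2.59 (1.74 to 3.71) in cell-free barcodes and 1.01 in macrophage-gated cells, and H2-DMb1 gave 2.35 (1.71 to 3.16), 0.690 (0.297 to 1.36) and 0.610. In cKO 8 of the 221 H2-DMa UMIs (3.62%) lay in 6 of 129 epithelial-gated cells. H2-DMb1 had 45 UMIs (2.68 CPM) in control and 6 UMIs (1.60 CPM) in cKO epithelial-gated cells, and Ciita had 11 UMIs and 1 UMI there.

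Few epithelial-gated cells carried these genes once depth was made equal. A Cd74 UMI was seen in 255 of 941 control cells (27.1%, median depth 6058 UMIs) and in 20 of 129 cKO cells (15.5%, median depth 14443 UMIs). After thinning to 1000 UMIs the shares were 58 of 934 (6.21%) and 3 of 129 (2.33%), against 5 of 607 (0.824%) and 10 of 1428 (0.700%) in stromal-gated cells. At least 1 UMI of any of the 7 genes was left in 90 of 934 control cells (9.64%, 7.82 to 11.7) and 4 of 129 cKO cells (3.10%, 0.851 to 7.75). A single draw is uncertain at such counts: averaged over all possible draws, 10.2% of control and 5.13% of cKO cells would keep a UMI of any of the genes, and 6.19% and 3.16% a Cd74 UMI. The control share thus stood above the 8 of 607 (1.32%; 1.99% averaged over draws) of stromal-gated cells, whose median depth was 11612 UMIs.

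Cd74 and H2-DMa did not follow depth in the same way within the control epithelial gate. Cd74 was at 55.9 CPM (43.6 to 70.6) in cells under 5000 UMIs, at 106 CPM in cells of 5000 to 20000 UMIs and at 121 CPM (115 to 127) in cells of 20000 UMIs or more. A single control cell with 38 Igkc UMIs, described below, held 103 of the Cd74 UMIs of the middle class, which was at 67.2 CPM (57.6 to 77.9) without it. H2-DMa was at 30.4 CPM (21.5 to 41.7), 32.1 CPM (25.6 to 39.8) and 5.81 CPM (4.57 to 7.29) in the same cells. In cKO, cells under 5000 UMIs held Cd74 at 41.7 CPM (8.60 to 122), from 3 UMIs, cells of 5000 to 20000 UMIs at 3.45 CPM (0.418 to 12.5) and cells of 20000 UMIs or more at 65.4 CPM. All 3 cKO cells with the most UMIs of these genes were in the deepest class, which held Cd74 at 15.5 CPM (11.4 to 20.6) without them. Among cells with 5 or more Epcam UMIs the 7 genes summed to 160 CPM in 404 control cells and 54.7 CPM in 47 cKO cells. Leaving out the 3 cells of each library with the most UMIs of these genes, of which 2 control cells and 1 cKO cell had 5 or more Epcam UMIs, put those sums at 138 and 26.3 CPM.

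**Figure D4:**
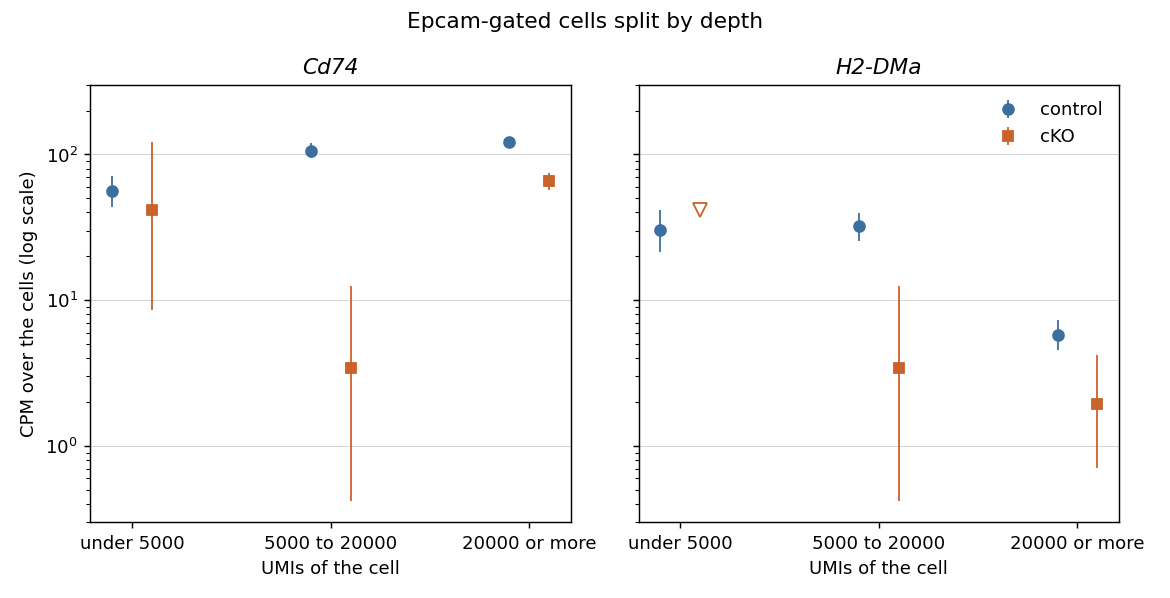
Level (CPM, log axis) of Cd74 on the left and H2-DMa on the right in epithelial-gated cells split by the UMIs of the cell, with circles for control, squares for cKO, bars for exact Poisson 95% intervals and an open triangle for the limit that 0 UMIs allow. In control H2-DMa stands at 30.4 and 32.1 CPM in the shallower cells and at 5.81 CPM in the deepest, whereas Cd74 stands at 55.9, 106 (67.2 without 1 cell) and 121 CPM.

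In the epithelial gate 5 of 6 genes were lower in cKO, beside 9.26% of 13020 genes lower and 30.3% higher. Their median log2 ratio was -1.54 (-2.40 to -0.94), with 0.48 for all genes. Over the whole gate H2-DMa had the ratio furthest from equality, 0.181 (0.0771 to 0.364), followed by 0.240 for H2-Eb1, 0.289 for H2-Ab1, 0.386 for H2-Aa and 0.486 (0.419 to 0.561) for Cd74, and H2-DMb1 had 0.595 (0.207 to 1.40). In cells of 20000 UMIs or more H2-Ab1 (19.0 and 4.83 CPM) fell further than H2-DMa (5.81 and 1.93 CPM). H2-DMa was also lower in cKO cell-free barcodes, at 11.6 and 3.94 CPM (30 and 9 UMIs), a ratio of 0.338 (0.141 to 0.731). Only 3 cells held 62.6% of the UMIs of these genes in cKO: they had 80, 53 and 23 Cd74 UMIs, 1, 0 and 1 H2-Aa UMIs, 8828, 5879 and 4962 UMIs of Igkc, an immunoglobulin light chain gene, and 5, 1 and 2 Epcam UMIs. In control a single cell with 1 Epcam UMI and 38 Igkc UMIs held 49 of the 162 H2-Aa UMIs and 103 Cd74 UMIs. With gates allowed to overlap the median log2 ratio was -0.81, with H2-DMa (-2.37) and H2-DMb1 (-1.10) the only 2 of these 6 genes past 2-fold. Subtracting cell-free RNA, estimated at 8.47% of the UMIs in control and 21.3% in cKO, gave a median of -3.96 over fewer genes. In cKO the amount subtracted exceeded the Cd74 and H2-Ab1 counts, which were set to 0. Their ratios therefore rest on the pseudocount of 0.5 UMI. Without the 3 highest cells of each library the summed level was 137 CPM against 26.9 CPM for cKO. With every cell thinned to 1000 UMIs only Cd74 kept 20 UMIs over both libraries, with a log2 ratio of 0.07 that rests for cKO on the UMIs of 3 cells. Averaged over all possible draws the Cd74 ratio was -0.56, lower in cKO by less than 2-fold. The markers of other cell types given above were higher in the cKO gate while these genes were lower, and their part in the result was not tested.

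**Figure D5:**
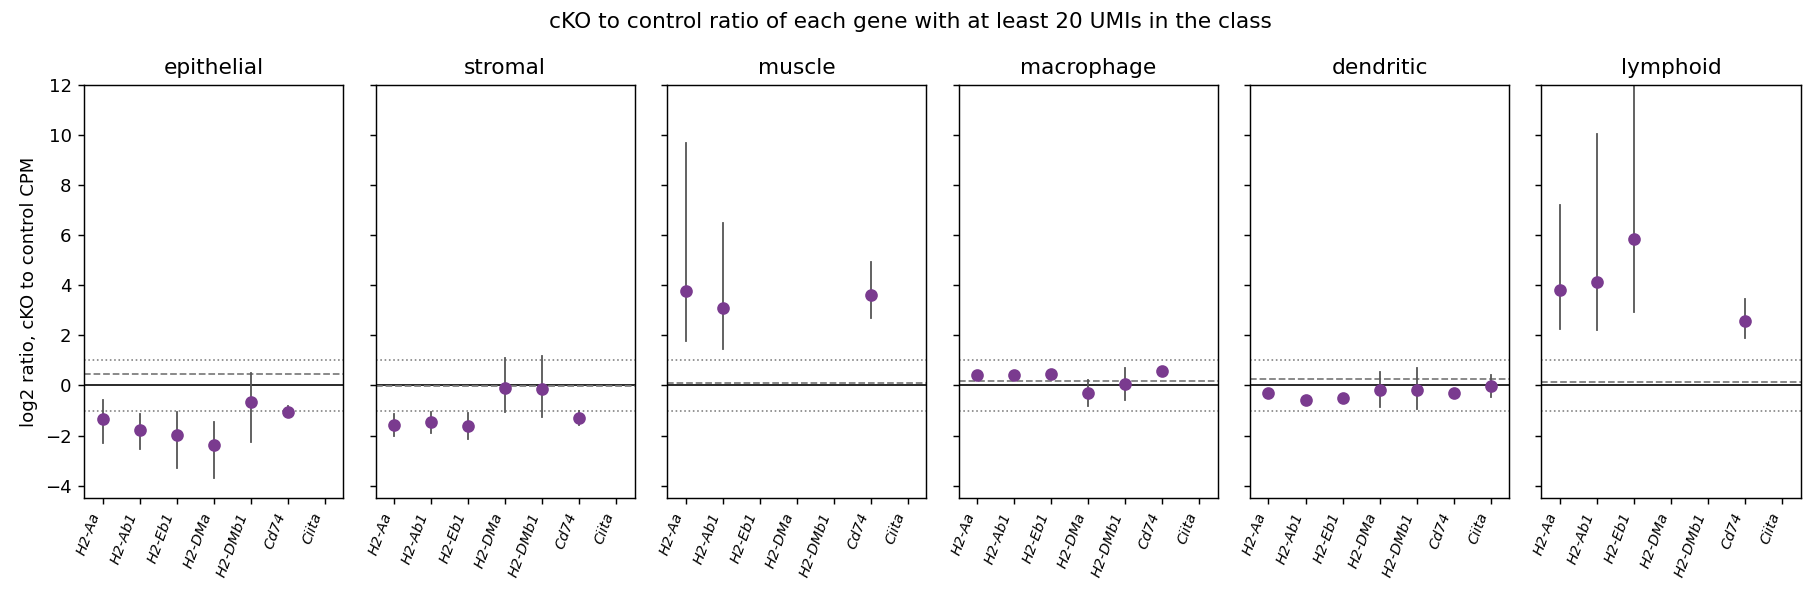
Log2 ratio of cKO to control CPM for each gene with at least 20 UMIs over both libraries, with 1 panel per class, bars for exact 95% intervals (cut at the top of the axis), the dashed line for the median of all genes and dotted lines for 2-fold. The points lie below the lower dotted line for 5 genes in the epithelial and 4 in the stromal gate, between the dotted lines in both immune presenting gates, and above the upper line in the muscle and lymphoid gates.

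The stromal, muscle and lymphoid gates owed most of their class II presentation UMIs to a few cells. In stromal-gated cells 4 of 6 genes were lower in cKO, beside 6.92% of 13446 genes lower and 5.56% higher, with a median log2 ratio of -1.39 against -0.03 for all genes. H2-Aa was at 11.3 CPM in control and 3.79 CPM in cKO, and Cd74 at 25.3 and 10.2 CPM. The 3 highest cells held 80.9% of these UMIs in control and 52.3% in cKO, and carried 14, 8 and 5 macrophage-marker UMIs in control and 9, 1 and 4 in cKO. Without them the 7 genes summed to 11.2 and 11.0 CPM, and the median log2 ratio was -0.0033, so the lower level in cKO was not seen in the remaining cells. Without the 6% of cells with the highest doublet scores the median was 0.54, with gates allowed to overlap -0.39, with cells averaged -0.50 and with cell-free RNA subtracted 2.10. The last came from 2 genes, with the control H2-DMa count set to 0 by the subtraction.

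In muscle-gated cells 3 of 3 genes were higher in cKO, beside 6.82% of 8558 genes, with a median log2 ratio of 3.60 against 0.10 for all genes. Cd74 had 8 UMIs (11.2 CPM) in control and 212 UMIs (144 CPM) in cKO. The top cells of cKO had 200 and 89 UMIs of the 7 genes together with 17 and 9 macrophage-marker UMIs and 18 and 9 UMIs of Ptprc. Without the 3 highest cells the sums were 8.83 and 15.9 CPM, and with gates allowed to overlap the median log2 ratio was 0.016.

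In lymphoid-gated cells 4 of 4 genes were higher in cKO, beside 7.46% of 9155 genes higher and 3.01% lower, with a median log2 ratio of 3.98 against 0.14 for all genes. Cd74 was at 24.7 CPM in control and 152 CPM in cKO. H2-Eb1 had 0 UMIs in control and 95 in cKO, at least 9.51-fold higher when 3 counts are taken as the limit over the control cells. The 3 highest cKO cells, with 328, 223 and 27 UMIs, held 90.7% of the total. Of these the top cell had 11 macrophage-marker UMIs, the next 1 dendritic-marker and 25 Ptprc UMIs, and the last 4062 Igkc UMIs. Without the 3 highest cells the sums were 6.30 and 28.1 CPM. The higher call did not hold under 2 other settings: with gates allowed to overlap the median log2 ratio was 0.19 (H2-Aa -0.16, H2-Eb1 -0.31), and without the 6% of cells with the highest doublet scores it was -0.48, from Cd74 alone. For all 3 gates, the part that these other-type markers play in the ratios was not tested beyond leaving those cells out.

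Cells outside the exclusive gates held a further part of the signal. Over all ungated cells, 6 of 6 tested genes were lower in cKO, beside 11.9% of 13402 genes lower and 6.36% higher, with Cd74 at 1068 and 405 CPM (ratio 0.380) and the lowest ratio, 0.196 (0.129 to 0.292), for H2-DMa. Among cell type markers there, epithelial (1758 and 133 CPM), macrophage (95.6 and 29.8) and B markers (37.1 and 9.23) were also lower in cKO. Monocyte (201 and 371 CPM), lymphoid (91.4 and 180) and endothelial markers (480 and 699) were higher. The part of these shifts was not tested. In the ungated cells, 33 control and 26 cKO cells with 50 or more UMIs of the 7 genes held 6725 of 7700 and 6029 of 6683 such UMIs. These cells were chosen by their class II UMIs, so their levels are a description: Cd74 was at 10466 and 11118 CPM and Ciita at 10 UMIs and 0 UMIs. They also held Cd14 at 1531 and 2000 CPM, Lyz2 at 572 and 1573 CPM and Il1b at 1498 and 4768 CPM, while Cd79a was seen in 7 and 3 of them. Cells with both a macrophage and a dendritic gate UMI were few, 11 in control and 13 in cKO, and held 3395 and 6651 UMIs of the 7 genes. Over all cells together, H2-DMa had levels of 13.6 and 4.18 CPM, with a cKO to control ratio of 0.307 (0.261 to 0.360), and was the only 1 of the 7 genes past 2-fold, beside 12.6% of 16921 genes lower and 12.9% higher. H2-DMb1 had a ratio of 0.612 (0.493 to 0.757), Cd74 of 0.916 (0.904 to 0.928) and Ciita of 1.08 (0.858 to 1.37). Epithelial-gated cells, which held 38.4% of the control H2-DMa UMIs, were 25.8% of control cells (16766411 UMIs) and 2.61% of cKO cells (3757667 UMIs). Composition and level therefore cannot be told apart in these sums.

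The other genes of the pathway differed between the immune gates. Of the endosomal proteases, Ctsl, a cathepsin that cuts the invariant chain in thymic epithelium, was at 1888 CPM in control macrophage-gated cells and 44.3 CPM in dendritic-gated cells, a ratio of 42.6 (32.9 to 56.2), and the ratio was 37.5 in cKO. Ctss, the cathepsin that does so in antigen-presenting cells, had macrophage to dendritic ratios of 2.69 (2.43 to 2.99) and 5.10 (4.59 to 5.67), Lgmn of 4.45 and 8.11, and Ctsb of 20.1 and 32.1. Ifi30, the thiol reductase GILT, leaned the other way, with ratios of 0.395 and 0.437. The ubiquitin ligases that send class II to lysosomes were likewise higher in the macrophage gate. March1 UMIs were seen in 38 of 223 macrophage-gated and 1 of 139 dendritic-gated control cells, and in 22 of 104 and 3 of 230 cKO cells. March8 had macrophage to dendritic ratios of 34.5 (9.29 to 289) and 8.16 (4.84 to 14.2).

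The dendritic gate was the higher for the costimulatory genes and for Cd83. Cd83, which keeps class II on the surface by opposing these ligases, had dendritic to macrophage ratios of 3.83 (3.48 to 4.23) in control and 1.76 (1.61 to 1.93) in cKO. The costimulatory gene Cd80 had ratios of 54.3 (30.1 to 110) and 7.57 (5.60 to 10.5), Cd40 of 3.31 and 1.58, and Cd86 of 1.48 and 1.25. H2-Oa and H2-Ob, the chains of the H2-DM inhibitor H2-O, had 0 and 9 UMIs in control macrophage-gated cells and 15 and 34 UMIs in dendritic-gated cells, and 0 and 4 against 13 and 101 in cKO. Of the enhanceosome genes, Rfx5 had a dendritic to macrophage ratio of 2.64 (1.39 to 5.18) in control and 5.05 (1.63 to 25.3, with 3 macrophage UMIs) in cKO, Creb1 of 2.37 and 1.70, while the intervals of Rfxap, Rfxank, Nfya, Nfyb and Nfyc spanned equality in both libraries.

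Between the libraries most pairs of these genes and classes differed by less than 2-fold. Of 31 genes in 6 classes, 141 gene and class pairs had enough UMIs, of which 12 were 2-fold higher and 16 lower in cKO, with a median log2 ratio of 0.00. Over all genes, 12.8% of 60660 such pairs were higher and 5.67% lower. By gate, 2 of 23 tested genes were higher and 5 lower in the epithelial, 1 and 3 of 25 in the stromal, 3 and 3 of 19 in the muscle, 3 and 1 of 24 in the macrophage, 1 and 2 of 29 in the dendritic and 2 and 2 of 21 in the lymphoid gate. These stand beside the shares of all genes given above for each gate, with 3.83% lower in the muscle gate. The enhanceosome list (Rfx5, Rfxap, Rfxank, Nfya, Nfyb, Nfyc and Creb1) had 0 of 7 genes past 2-fold in the epithelial, stromal and dendritic gates, where 30.3%, 5.56% and 11.6% of all genes were higher, and 0 of 5 tested genes in the muscle and macrophage gates. In the lymphoid gate 1 of 7 was lower: Rfx5, a subunit of the RFX complex, at 18.5 and 9.25 CPM (12 and 20 UMIs), with an interval of the ratio from 0.233 to 1.12. Rfx5 passed only with the pseudocount of 0.5 UMI and was just short of 2-fold without it. Of the interferon gamma list, Jak2, a kinase of the receptor, was at 250 CPM in control and 78.0 CPM in cKO epithelial-gated cells, and Irf1, a transcription factor induced by interferon gamma, at 80.8 and 39.9 CPM. Socs1, the feedback inhibitor of that signal, was lower in both immune gates, at 77.7 and 31.9 CPM in macrophage-gated and 75.7 and 29.2 CPM in dendritic-gated cells. In the macrophage gate Cd80 had 5.98 and 50.1 CPM, with a ratio of 8.38 (4.26 to 18.0), and Cd83 at 302 and 637 CPM, a ratio of 2.11 (1.87 to 2.37). Ifng itself had 6 UMIs (9.25 CPM) in control and 18 UMIs (8.33 CPM) in cKO lymphoid-gated cells, with an interval of their ratio from 0.342 to 2.77. In epithelial-gated cells it had 0 UMIs in control and 12 UMIs (3.19 CPM) in cKO, where the lymphoid markers were at 2.27 and 19.7 CPM. The part of those markers in this count was not tested.

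Across the 12 class and library sums, the pattern of Cd74 was followed by H2-Ab1 (Pearson r of log2(CPM + 1) = 0.984), H2-Aa (0.981), H2-Eb1 (0.970), H2-DMb1 (0.924), H2-DMa (0.897) and Ciita (0.773). Of 11491 other genes ranked in the same way, Cd86 (0.963), Tlr1 (0.961), Plbd1 (0.958), Zfp516 (0.956) and Ikbkg (0.954) came nearest. The 12 points share 2 libraries and their depth and are not independent samples, so these values are a description.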

How the data were processed

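Single-cell RNA was measured in whole uteri, 1 library of 3 pooled mice per group. The authors deposited unfiltered raw UMI counts per gene and barcode. Cell Ranger 6.1.1 and mm10 are named in the submitters' processing notes, while the file headers carry the format of Cell Ranger 4. Annotation and counting options are not given in the sources used here. Cells had at least 500 genes and at most 20% mitochondrial UMIs, and 283 control and 46 cKO barcodes exceeded the latter limit. Gates required 1 UMI of the own gate and 0 of the others. Doublets were not called: cells with several gates were set aside, and the 6% of cells with the highest score against simulated doublets (219 and 297) were left out as an alternative. Counts were summed per class and library. CPM have exact Poisson, ratios conditional binomial and shares Clopper-Pearson intervals (95%), which cover counting error only. Log2 ratios carry 0.5 UMI as pseudocount. A count of 0 was taken to allow 3 counts. Computations used Python 3.11.15, numpy 2.4.6, scipy 1.17.1, pandas 2.3.3 and scikit-learn 1.9.0 and were tested on simulated data. The 7 genes, the gates and the gene lists were chosen with earlier results of these data known. Every one of the 7 genes is reported in full, together with, from the fixed lists, up to 3 genes per class and list with the largest fold past 2-fold between the libraries. The genes compared between the immune gates, and Ifng, were chosen from these lists after their values were seen. Genes most like Cd74 were the 5 with the highest r among those with at least 200 UMIs. Some genes of these lists are not reported here.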

Additional observations from a re-analysis of the deposited data

Results flagged for a closer look

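In 4 genes the cKO to control log2 ratio had opposite signs in the macrophage and the dendritic gate, each a single library per group, and the difference was not tested. For Cd74 the log2 ratio was 0.56 in the macrophage gate and -0.29 in the dendritic gate, which differ by 0.856. For H2-Aa it was 0.43 and -0.30, which differ by 0.729. For H2-Ab1 it was 0.43 and -0.57, which differ by 1.002, and for H2-Eb1 0.45 and -0.49, which differ by 0.934.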

How the results depend on the processing

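No paired analysis was possible because each group was 1 library. Over the 32 ratios of a gene in a class, 355 values were computed under alternatives. Of these, 279 stayed within the counting interval, 65 moved beyond it and 11 changed sign from a main ratio of 2-fold or more. A change of sign from a smaller ratio was not counted apart. The alternative without a minimum of UMIs leaves each of these 32 ratios as it was, so its values lie within the interval by construction. The signs in the macrophage and dendritic gates held under every alternative for the median of the genes. With gates allowed to overlap, the median log2 ratio was -0.81 in the epithelial, -0.39 in the stromal, 0.016 in the muscle, 0.23 in the macrophage, -0.24 in the dendritic and 0.19 in the lymphoid gate, and H2-Aa and H2-Eb1 in the lymphoid gate turned to -0.16 and -0.31. With 2 UMIs of the gate the dendritic median was -0.23. With cells averaged, the stromal median was -0.50 and the lymphoid 2.04. Without the 6% of cells with the highest doublet score, the dendritic median was -0.23, the stromal turned to 0.54 (Cd74 0.93, H2-Aa 0.79, H2-Ab1 0.29, H2-Eb1 0.84) and the lymphoid to -0.48, resting on Cd74 at -0.48. Further alternatives were chosen after seeing the data. Without the 3 highest cells the macrophage median was 0.35, the lymphoid 1.98 and the stromal -0.0033 (Cd74 0.029, H2-Aa 0.077, H2-Eb1 0.28), and no muscle gene kept 20 UMIs. A draw of 1000 UMIs per cell left Cd74 alone, at 0.068 in the epithelial and -0.11 in the stromal gate, and at -0.56 and -0.18 averaged over all possible draws. Subtracting cell-free RNA gave -3.96 in the epithelial and 2.10 in the stromal gate. Counts that fell below 0 were set to 0, among them cKO epithelial Cd74 and H2-Ab1 and control stromal H2-DMa. The ratios of these genes rest on the pseudocount. The planned subtraction by gate genes was not run, since the gates set those genes to 0, and markers other than gates were used in its place. The summed epithelial level relative to cell-free barcodes (log2) was -4.12 in cKO with 2 Epcam UMIs, -1.39 in cKO and -0.83 in control with overlapping gates, -3.71 and -2.62 with cells averaged, -5.30 and -2.69 without the 3 highest cells, and in control -2.54 with cell-free barcodes of at most 50 UMIs and -2.53 without the highest doublet scores. The cause of these moves was not tested, apart from what each alternative leaves out. Median-of-ratios scaling lowered the epithelial ratios by 0.267 on the log2 scale, to -1.31 for Cd74.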
